A study of Macaca mulatta with 51 samples.

Results

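Adipokines are proteins that adipose tissue releases into the blood or into the tissue around it. The 7 adipokine genes described here were LEP, ADIPOQ, CFD, RBP4, RARRES2, NAMPT and APLN. They were found by symbol in the gene count table, and all 7 were among its 16033 genes and passed the filter on low counts in both tissues. RNA was sequenced from punch biopsies of subcutaneous abdominal adipose tissue (AT) and gastrocnemius skeletal muscle (SM) of 10 rhesus macaques aged 11 to 22 years. All animals were obese and non-diabetic, had been kept for years on a high-fat, high-sucrose diet, and were males or ovariectomized females in equal number. Each was sampled before treatment (pre-treatment), after 12 weeks of daily subcutaneous native human FGF21 in escalating doses (post-treatment), and 16 weeks after FGF21 was stopped (washout). One animal was held at a lower dose than the others. No animal went without FGF21, and the paper reports that the animals lost weight on treatment and regained it by washout. So the passage of time, the treatment and the change in weight cannot be told apart in these comparisons. AT gave 10 pre-treatment, 9 post-treatment and 8 washout libraries, and SM gave 6, 8 and 7. The SM libraries came from 8 of the animals. Both SM libraries were present in 6 animals for pre- and post-treatment, 7 for post-treatment and washout, and 6 for pre-treatment and washout.

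Leptin (LEP) is made by fat cells and tells the brain how much fat is stored, and adiponectin (ADIPOQ), also made by fat cells, raises insulin sensitivity in liver and muscle. CFD, known as adipsin or complement factor D, is the serine protease that starts amplification of the alternative complement pathway, and RBP4 carries retinol in the blood. RARRES2 encodes chemerin, an attractant of immune cells and regulator of fat cell formation. NAMPT makes nicotinamide mononucleotide on the way to NAD and has also been called visfatin. APLN encodes apelin, the ligand of the receptor APLNR. FGF21 is a hormone that acts on fat cells through FGFR1 and its co-receptor KLB.

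Total counts per library ranged from 14455195 to 23940980. At this depth every adipokine had at least 25 counts in every AT library, and in SM the lowest count was 6. Levels are counts scaled to a common library size by TMM (CPM), which are not divided by gene length, so they are compared between samples and not between genes. A gene was called when its Benjamini-Hochberg adjusted p, over all genes of the tissue, was under 0.05 in edgeR's quasi-likelihood test and its log2 fold change exceeded 0.26 in size. The model held time point and animal. Skeletal muscle markers summed to between 64.2 and 189 CPM in the AT libraries and to at least 93794.5 CPM in SM, so each library carried the markers of its label. Libraries of SM differed in PLIN1, a protein of the fat cell's lipid droplet. It was at 104 CPM in the pre-treatment and 133 CPM in the post-treatment SM library of animal 24849, and at 1.63 to 41.1 CPM in the other 19. The sum of 7 adipocyte markers, PLIN1 among them, set these libraries apart far less. It was 2119 and 2488 CPM in the 2 libraries of 24849 and 602 to 1871 CPM in the other 19. The library identifiers fall into 3 number series whose meaning is not known. Pre- and post-treatment AT libraries were both of the last series in 6 animals.

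In AT, 3 of the 7 adipokines were called post- compared to pre-treatment, beside 15.5% of all 13367 genes tested. LEP, RBP4 and APLN fell. LEP fell most, to 0.262 of its level in the fit, and it was lower in all 9 animals with both biopsies. Of the other 4 genes, RARRES2 was higher in 9 of 9 animals without passing the test, and ADIPOQ, CFD and NAMPT moved in both directions. The number of calls fell to 1, which was LEP, when animal 21189, 21866, 22130 or 24849 was left out, and also without the pre-treatment library of animal 20275.

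**Figure D1:**
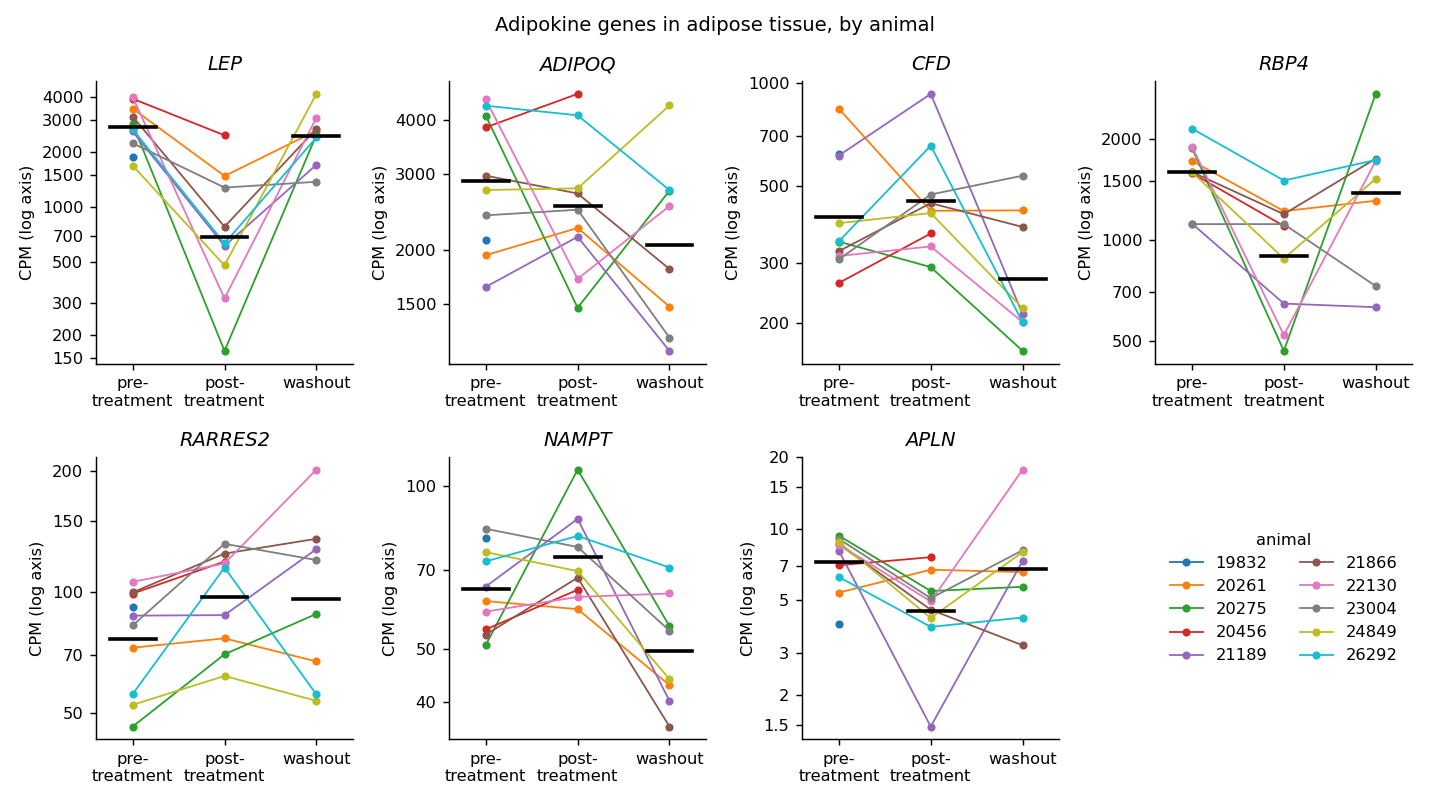
CPM of each adipokine gene in AT on a log axis at the 3 time points, with 1 line per animal and black bars at the geometric means. All 9 LEP lines drop at post-treatment and all 8 rise at washout, whereas the lines of ADIPOQ and NAMPT cross at post-treatment.

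Pre-treatment LEP in AT ranged from 1691 to 4011 CPM, with a median of 2763 and a mean of 2849 ± 796 CPM (SD, n = 10). Post-treatment, LEP was at 164 CPM in animal 20275, 317 in 22130, 481 in 24849, 615 in 21189, 635 in 26292, 782 in 21866, 1282 in 23004, 1482 in 20261 and 2475 in 20456, with a mean of 915 ± 724 CPM (SD, n = 9). Animal 20456 alone stayed within the pre-treatment range, so that the ranges overlapped by 1 library. The spread between animals was widest at this time point, with a 15.1-fold distance between the highest and the lowest library against 2.37-fold pre-treatment. The log2 fold change was -1.93 ± 0.34 (SE) with an edgeR adjusted p of 0.00263. Under the 22 other ways of fitting the data that were tried it lay between -2.13 and -1.52 and was called each time. Within the 6 animals whose libraries shared the last identifier series, log2 CPM fell by 2.22 on average and fell in 6 of 6, with an exact sign-flip permutation p of 0.0313 (two-sided), the smallest that 6 animals allow.

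At washout, LEP was at 1378 CPM in animal 23004, 1706 in 21189, 2409 in 26292, 2483 in 20275, 2622 in 20261, 2686 in 21866, 3093 in 22130 and 4172 in 24849. It was higher than post-treatment in 8 of 8 animals, with a log2 fold change of 1.87 ± 0.36 (SE) and an adjusted p of 7.31e-04. Animal 23004 moved least, from 1282 to 1378 CPM. Compared with pre-treatment the log2 fold change was -0.06, with a 95% interval from -0.76 to 0.64 and an adjusted p of 0.922. LEP was lower than pre-treatment in 7 of 8 animals, and in the remaining animal, 24849, it stood at 4172 CPM against 1691 CPM before treatment.

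Of the 5 partners of leptin examined, LEPR, the leptin receptor, rose from 111 ± 45.9 to 187 ± 89.6 CPM in AT at post-treatment (log2 fold change 0.87 ± 0.23 SE, adjusted p = 0.0191). STAT3, through which the receptor signals, fell from 331 to 252 CPM (-0.40, adjusted p = 0.00455). The remaining 3, JAK2, SOCS3 and LEPROT, did not pass the test. At washout LEPR fell again (log2 fold change -1.01 compared to post-treatment, adjusted p = 0.00338).

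ADIPOQ in AT had a mean of 3057 ± 1053 CPM pre-treatment (SD, n = 10), 2694 ± 1040.4 CPM post-treatment (n = 9) and 2257 ± 1059.6 CPM at washout (n = 8). The 3 ranges, from 1641 to 4469, from 1469 to 4604 and from 1166 to 4328 CPM, lay almost on top of each other. ADIPOQ was lower post-treatment in 4 of 9 animals, and 2 of them accounted for most of the movement. It went from 4099 to 1469 CPM in animal 20275 and from 4469 to 1713 CPM in 22130, while in the other 7 its log2 CPM changed by between -0.14 and 0.39. The log2 fold change of -0.21 had a 95% interval from -0.64 to 0.23 and an adjusted p of 0.509, and it turned to 0.07 without the post-treatment libraries of these 2 animals. At washout ADIPOQ was lower than pre-treatment in 7 of 8 animals. That log2 fold change of -0.46 (adjusted p = 0.138) was not called in the model used, and it was called under 5 of the 22 alternatives, which gave values between -0.63 and -0.35.

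Among the 6 partners of adiponectin in the table, of 7 listed, ADIPOR2, one of its receptors, fell from 599.6 ± 111 to 369 ± 151 CPM at post-treatment (log2 fold change -0.75 ± 0.18 SE, adjusted p = 0.0133). ADIPOR1, CDH13, APPL1, ERP44 and GSTK1 did not pass the test. APPL1, an adaptor protein that binds both receptors, was lower at washout than post-treatment (-0.41, adjusted p = 8.85e-04) and than pre-treatment (-0.28, adjusted p = 0.0168).

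The ratio of LEP to ADIPOQ does not depend on how libraries are scaled. It was chosen with earlier results of these data known, so its tests restate the LEP and ADIPOQ values above and are not independent of them. It was taken in each animal as log2 of LEP counts plus 1 over ADIPOQ counts plus 1. These are ratios of reads, not of molecules. Pre-treatment ratios lay between 0.614 and 1.78, with 0.915 as their median. Post-treatment ratios lay between 0.112 and 0.659 around a median of 0.287, and those at washout between 0.875 and 1.77 around 1.16. The post-treatment range met the pre-treatment range through animal 20261 and lay wholly below the washout range. Within animals the ratio fell in 9 of 9 post-treatment, by 1.81 ± 0.64 on the log2 scale (SD, n = 9; exact sign-flip permutation p = 0.00391, two-sided, the smallest that 9 animals allow; 0.0117 adjusted over 3 comparisons). It rose in 8 of 8 at washout, by 2.24 ± 0.65 (exact p = 0.00781, adjusted 0.0117). Compared with pre-treatment the washout ratio was higher in 6 of 8 animals, by 0.32 ± 0.27 (exact p = 0.0313, adjusted 0.0313). When animals were left out in turn this last value stayed between 0.28 and 0.39, and the exact p rose to 0.0625 for 6 of the 8. In the 3 animals with both libraries in the last identifier series it was 0.12 (exact p = 1.0, with 0.25 as the smallest that 3 animals allow). Among the 6 animals of the last identifier series the post-treatment change was -2.04 (exact p = 0.0313).

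**Figure D2:**
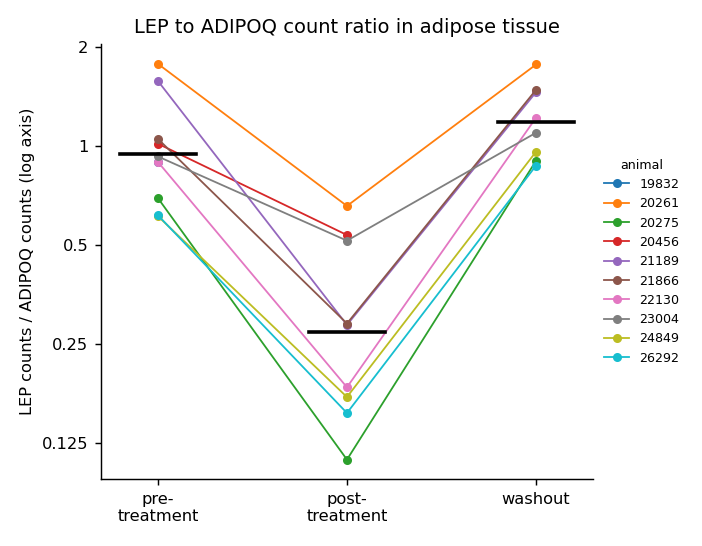
Ratio of LEP to ADIPOQ counts in AT on a log axis, with 1 line per animal and black bars at the geometric means. Every line falls at post-treatment, to between 0.112 and 0.659, and every line with a washout library rises again, to between 0.875 and 1.77.

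RBP4 in AT was at 1114 to 2144 CPM pre-treatment (mean 1623 ± 323 SD, n = 10) and at 467 to 1502 CPM post-treatment (mean 960.2 ± 353, n = 9). Post-treatment it was lowest in animals 20275 (467 CPM), 22130 (521 CPM) and 21189 (646 CPM) and highest in 26292. The log2 fold change was -0.75 ± 0.22 (SE), with an adjusted p of 0.0318. RBP4 was lower in 9 of 9 animals, although animal 23004 had 1114 CPM at both time points. The call was lost when animal 21189, 21866, 22130 or 24849 was left out (adjusted p from 0.0504 to 0.0947), without the pre-treatment library of 20275 (0.0538), and without the post-treatment libraries of 20275 and 22130 (log2 fold change -0.45, adjusted p = 0.0776). In the 6 animals of the last identifier series log2 CPM fell by 0.85 on average, in 6 of 6 (exact p = 0.0313).

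At washout RBP4 ranged from 630.4 CPM in animal 21189 to 2720.1 CPM in 20275, with a mean of 1512 ± 659 CPM (SD, n = 8). It was higher than post-treatment in 6 of 8 animals, and the log2 fold change of 0.60 ± 0.24 (SE) had an adjusted p of 0.0546. Of the 22 alternatives, 5 called it. Compared with pre-treatment the log2 fold change was -0.15 (95% interval -0.63 to 0.34). Of the 6 listed partners in retinol handling, 4 were tested, and none was called post-treatment. From post-treatment to washout ALDH1A1, an enzyme that makes retinoic acid, fell from 448 to 272 CPM (-0.64, adjusted p = 0.00129). LRAT, which stores retinol as ester, rose at a low level, from 0.138 to 0.867 CPM (2.13, adjusted p = 0.00457).

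CFD in AT was at 262 to 842 CPM pre-treatment (mean 437 ± 189.7 SD, n = 10), 291 to 930.0 CPM post-treatment (482 ± 197, n = 9) and 166 to 537 CPM at washout (293 ± 136, n = 8). It was higher post-treatment in 7 of 9 animals, and the log2 fold change of 0.23 had an adjusted p of 0.467. It fell from post-treatment to washout, with a log2 fold change of -0.79 ± 0.23 (SE) and an adjusted p of 0.0121. Animals differed in this step. In 21189 CFD went from 930.0 to 212 CPM and in 26292 from 657 to 201 CPM, while in 23004 it went from 474 to 537 CPM and in 20261 it was 425 and 426 CPM. With the identifier series in the model the log2 fold change was -0.59 and no longer called (adjusted p = 0.0638).

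Partners of CFD in the alternative complement pathway were in the table for 7 of 8 listed genes. Post-treatment CFP (properdin, which stabilizes the enzyme complex that CFD helps to form) rose from 17.8 to 33.5 CPM (log2 change 0.81, adjusted p = 0.0270), and CFI, an inhibitor of the pathway, rose from 13.2 to 18.1 CPM (0.45, adjusted p = 0.0315). CFB, which factor D cleaves, C3, C3AR1, C5AR2 and MASP1 did not pass the test. From post-treatment to washout 3 of the 7 were called, beside 35.4% of all genes. They were CFP (-1.55), the receptor C3AR1 (-1.56) and the receptor C5AR2 (-0.69), all lower. In this step 4 of the 7 partners had negative log2 fold changes and 3 had positive ones.

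RARRES2 in AT had a mean of 79.5 ± 21.5 CPM pre-treatment (SD, n = 10), 101 ± 26.4 CPM post-treatment (n = 9) and 106 ± 50.5 CPM at washout (n = 8). It was higher post-treatment in 9 of 9 animals, by as little as 87.5 to 87.7 CPM in 21189 and as much as 55.8 to 115 CPM in 26292. The log2 fold change was 0.39 ± 0.14 (SE), and its adjusted p of 0.0581 lay just above the limit. It was called under 5 of the 22 alternatives, and the exact sign-flip permutation p over the 9 animals was 0.00391 (unadjusted). At washout RARRES2 was higher than pre-treatment in 6 of 8 animals, from 53.7 CPM in 24849 to 202 CPM in 22130. This difference was called (log2 fold change 0.43 ± 0.14 SE, adjusted p = 0.0393), and the call was lost under 7 of the 22 alternatives. Those were the fit without 20275, 21189, 21866, 22130 or 23004, the fit without the pre-treatment library of 20275, and the fit without the animal in the model.

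Of the 3 chemerin receptors, CCRL2, which binds chemerin without signalling, rose from 3.41 ± 1.79 to 6.32 ± 2.48 CPM post-treatment (log2 fold change 0.90, adjusted p = 0.0220). CMKLR1, a signalling receptor, was at 97.5 CPM pre-treatment and 111 CPM post-treatment, and neither it nor GPR1 was called. CMKLR1 fell to 65.5 CPM at washout (-0.82 compared to post-treatment, adjusted p = 0.00370).

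NAMPT in AT was at 50.9 to 83.5 CPM pre-treatment (mean 65.6 ± 11.8 SD, n = 10), 59.3 to 107 CPM post-treatment (75.2 ± 15.1, n = 9) and 36.0 to 70.8 CPM at washout (50.8 ± 12.1, n = 8). The post-treatment log2 fold change of 0.23 had an adjusted p of 0.181, with 6 of 9 animals higher. Animal 20275 went from the lowest pre-treatment level, 50.9 CPM, to the highest post-treatment level, 107 CPM. At washout NAMPT fell compared to post-treatment, in 7 of 8 animals, with a log2 fold change of -0.60 ± 0.13 (SE) and an adjusted p of 0.00126. This was called under all 22 alternatives, with values between -0.69 and -0.50. It was also lower than pre-treatment, in 6 of 8 animals (-0.37 ± 0.13 SE, adjusted p = 0.0381). That call was lost under 7 of the 22, among them library size scaling (-0.27, adjusted p = 0.132) and the fits without 20261, 21189, 21866, 23004 or 24849 (adjusted p from 0.0784 to 0.0999).

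Among the 8 partners of NAMPT in NAD synthesis and use, NMNAT2, which turns nicotinamide mononucleotide into NAD, fell from 11.6 ± 11.8 to 4.81 ± 3.87 CPM post-treatment (log2 fold change -1.07, adjusted p = 0.0353) and rose at washout (1.33, adjusted p = 0.00521). NMNAT1, NMNAT3, NAPRT, NMRK1, NADSYN1, NNMT and SIRT1 were not called in any of the 3 AT comparisons.

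APLN had 25 to 322 counts per AT library. It was at 3.98 to 9.34 CPM pre-treatment (mean 7.51 ± 1.78 SD, n = 10) and at 1.48 to 7.59 CPM post-treatment (4.89 ± 1.74, n = 9). The lowest post-treatment library was animal 21189 at 1.48 CPM, and the next was at 3.88 CPM. APLN was lower in 7 of 9 animals, with a log2 fold change of -0.73 ± 0.24 (SE) and an adjusted p of 0.0485. The call lay at the edge of the limit and was lost under 15 of the 22 alternatives (log2 fold change -0.87 to -0.58 over all 22), including the fit without any 1 of 7 animals, 20275, 21189, 21866, 22130, 23004, 24849 or 26292. At washout APLN ranged from 3.25 CPM in 21866 to 17.7 CPM in 22130, a log2 fold change of 0.60 compared to post-treatment (adjusted p = 0.0757). Of its partners, 3 of 5 listed were in the table. The receptor APLNR was at 40.1 CPM pre-treatment and 29.9 CPM post-treatment (-0.58, adjusted p = 0.105). It rose to 56.9 ± 22.6 CPM at washout (SD, n = 8; compared to post-treatment, adjusted p = 0.00517), while FURIN did not pass the test post-treatment.

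At washout compared to post-treatment, 3 of the 7 adipokines were called in AT (LEP higher, CFD and NAMPT lower), beside 35.4% of all genes tested. Compared with pre-treatment 2 were called (RARRES2 higher, NAMPT lower), beside 20.5% of all genes. Scaling by library size alone shifted the median of all genes by 0.11 on the log2 scale in this last comparison. There NAMPT lost its call and RARRES2 kept it, and over all genes 2313 were called higher and 590 lower, against 1671 and 1064 with TMM. In SM the same scaling shifted the median by -0.13 at washout compared to post-treatment. Of the 7 genes, LEP, RBP4 and APLN had opposite signs in the 2 steps, down and then up, and CFD and NAMPT had the reverse. These comparisons share the post-treatment libraries.

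**Figure D3:**
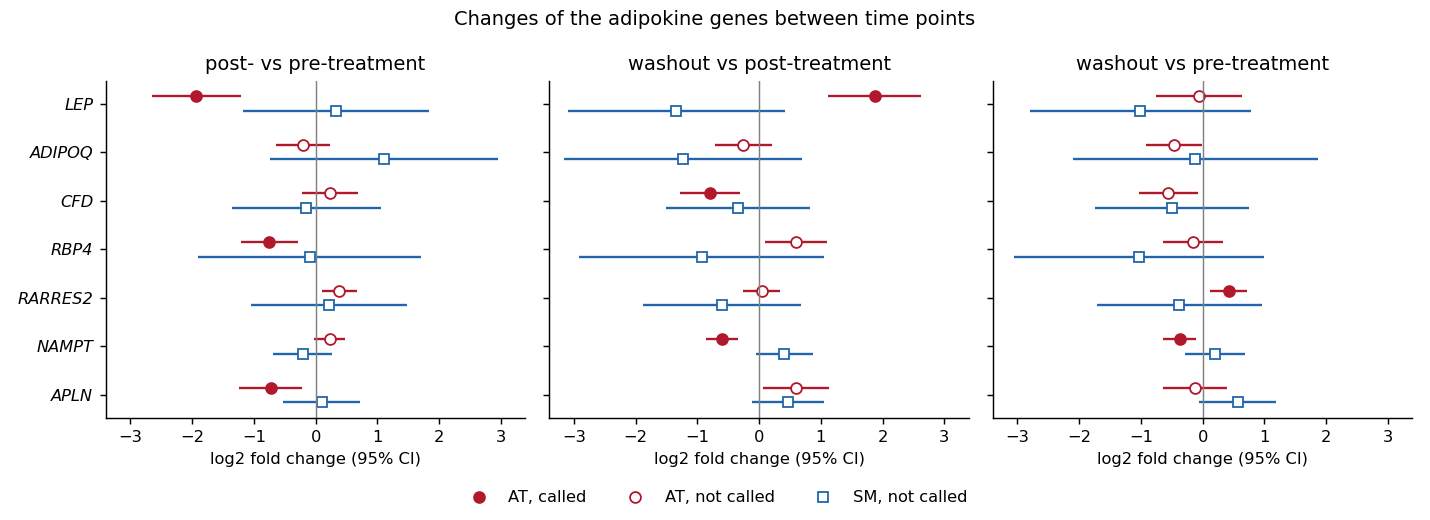
Log2 fold changes of the adipokine genes with 95% confidence intervals from the edgeR fits, for AT (circles) and SM (squares) in the 3 comparisons of time points, with filled symbols for calls. The LEP intervals in AT lie far below 0 post-treatment (-2.65 to -1.21) and above 0 at washout compared to post-treatment (1.11 to 2.63), and the SM intervals all include 0.

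Among 44 other secreted adipose proteins tested, of 54 listed, 3 rose and 5 fell post-treatment, beside 15.5% of all genes called, with a median log2 fold change of 0.11 against 0.03 over all genes. NRG4, a secreted growth factor of adipose tissue, fell from 5.76 ± 2.18 to 1.98 ± 1.03 CPM (log2 change -1.53, adjusted p = 0.00238), and INHBA, the activin A subunit, fell from 15.1 ± 5.68 to 6.10 ± 3.45 CPM (-1.40, adjusted p = 9.55e-04). C1QTNF6, a relative of adiponectin, rose from 16.7 to 28.7 CPM (0.84, adjusted p = 0.0184), and DPP4, a membrane peptidase that is also shed, rose from 59.1 to 105 CPM (0.81, adjusted p = 0.0150). From post-treatment to washout 7 of the 44 rose and 15 fell (median -0.23), beside 35.4% of all genes called, and compared to pre-treatment 4 rose and 1 fell, beside 20.5%. Of 7 adipogenic transcription factors tested, PPARG, the main regulator of fat cell formation, fell from 309 ± 63.4 to 195 ± 53.1 CPM post-treatment (-0.70, adjusted p = 0.0111). It rose at washout (0.49, adjusted p = 0.0303), and CEBPD fell (-0.76, adjusted p = 0.00616).

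Markers of some cell types in AT also changed between the time points. The 7 adipocyte markers tested, of 11 listed, all had negative log2 fold changes post-treatment (median -0.35), and 2 were called, PLIN1 (-0.62) and TRARG1, listed as TUSC5 (-1.08). Their summed level was 12384 to 27018 CPM pre-treatment, 8585 to 24344 CPM post-treatment and 9573 to 24155 CPM at washout, and none was at 0. All 14 macrophage markers were higher post-treatment (6 called, median 0.93) and all 14 fell at washout compared to post-treatment (14 called, median -1.73), with summed levels of 833 to 3334, 1686 to 9147 and 638 to 3726 CPM. Of 10 progenitor and fibroblast markers, COL1A1 (1.02) and COL1A2 (0.81) rose post-treatment, and 3 of 10 fell at washout compared to post-treatment. Endothelial markers showed 0 calls of 8 post-treatment and 4 higher at washout compared to post-treatment. Over all genes tested, 15.5% were called post-treatment and 35.4% at washout compared to post-treatment. Post-treatment no T cell (5 tested), B cell (4) or skeletal muscle (11) marker was called, 1 of 4 neutrophil markers fell (CXCR2, -0.50), 1 of 4 erythroid markers fell (SLC4A1, -2.14), and 1 of 4 keratinocyte markers rose (DSG1, 4.38, at a mean of 2.11 CPM post-treatment). Summed keratinocyte markers post-treatment were at 88.5 CPM in 23004, 22.6 CPM in 21189 and at most 2.13 CPM in the rest. Their median was 1.54 CPM pre-treatment and 1.14 CPM post-treatment. The part of these cell types in the adipokine values was not tested. In bulk samples, fewer cells of a type and less RNA per cell cannot be told apart.

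Some adipokines, such as LEP and ADIPOQ, are made by fat cells. Each of the 7 was also set against the mean log2 CPM change of the 7 adipocyte markers in the same animal. This step was added after the data had been seen. Adjustment over its 21 tests would draw on tests that reflect the shift of the markers themselves. The exact sign-flip permutation p-values of this step are therefore given unadjusted. The markers fell by 0.52 on average post-treatment. Relative to them, LEP still fell in 9 of 9 animals, by 1.53 ± 0.60 (SD, n = 9; exact p = 0.00391, unadjusted), and RBP4 in 8 of 9, by 0.31 ± 0.23 (exact p = 0.0117, unadjusted). In the edgeR fit the log2 fold change of RBP4 (-0.75) lay between those of the markers PLIN1 (-0.62) and TRARG1 (-1.08). So its relative value depends on which markers are averaged. Because the markers fell in 9 of 9 animals, a gene with no change of its own is also relatively higher, so the relative values of genes that did not fall are given as a description, with no test. They were 0.28 ± 0.26 for ADIPOQ (SD, n = 9), 0.89 ± 0.77 for RARRES2, 0.74 ± 0.98 for NAMPT and 0.74 ± 0.75 for CFD, and that of ADIPOQ lay below the 0.52 of a gene without change. APLN was relatively lower in 5 of 9 animals by 0.25 ± 0.94 on average (exact p = 0.434, unadjusted). From post-treatment to washout the markers rose by 0.37 on average, and LEP was relatively higher in 8 of 8 animals (1.68 ± 0.64, exact p = 0.00781, unadjusted). The relative values of ADIPOQ (-0.56), CFD (-1.16) and NAMPT (-0.97) include that rise of the markers and are given with no test.

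The size of the changes differed between animals, and 2 animals stood apart in the markers. In 20275 and 22130 the mean log2 CPM of the adipocyte markers fell by 2.0 and 1.31 and that of the macrophage markers rose by 2.65 and 2.13, while in the other 7 the adipocyte markers changed by between -0.43 and -0.02. The same 2 animals had the steepest falls of LEP (-4.12 and -3.66), RBP4 (-2.0 and -1.86) and ADIPOQ (-1.48 and -1.38). Over all 9 animals 6 of 14 relations between the change of a member and that of a marker list had an adjusted permutation p under 0.05, those of LEP, RBP4 and ADIPOQ with both lists, but these relations span 2 separate clusters of animals. Within the 7 others, the LEP change went with the adipocyte marker change with r = 0.84 (exact permutation p = 0.0159, 0.111 adjusted over 14; Spearman's rho 0.86, exact p = 0.0238) and APLN with r = 0.88 (exact p = 0.0137, 0.111 adjusted; rho 0.82). RBP4 had r = 0.65 and ADIPOQ r = -0.15 (exact p = 0.108 and 0.753). So the ADIPOQ relation rested on the 2 animals that stood apart, and none passed the adjusted test without them.

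**Figure D4:**
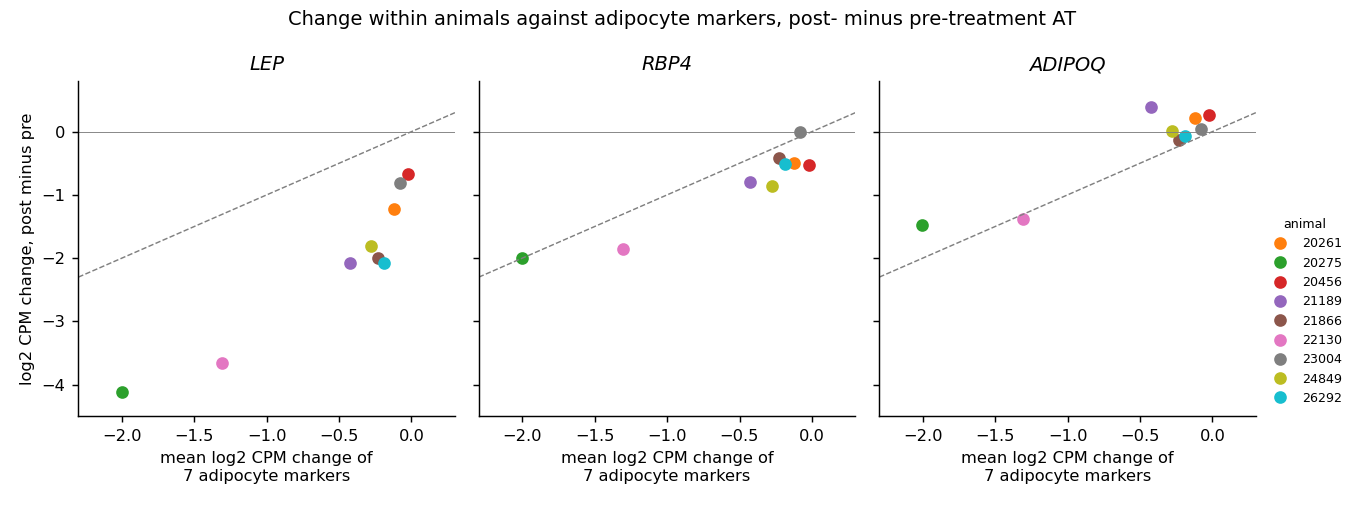
Change of log2 CPM from pre- to post-treatment in each of 9 animals for LEP, RBP4 and ADIPOQ, against the mean change of 7 adipocyte markers, with a dashed line where both changes are equal. All 9 animals lie below the line for LEP, 8 of 9 below it for RBP4 and 8 of 9 above it for ADIPOQ, and animals 20275 and 22130 lie apart at the left.

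Between the members themselves, 0 of 21 pairs of post-treatment changes reached an adjusted p under 0.05 in the exact permutation test over 9 animals. The smallest adjusted p values, 0.0592 for LEP with RBP4 and 0.0684 for LEP with ADIPOQ, again rested on the same 2 animals, without which r was 0.56 and 0.29. The levels of an animal pre-treatment and at washout were compared over the 8 animals with both. No member passed the adjusted test over all 8. RARRES2 had r = 0.82 (exact permutation p = 0.0183, 0.0641 adjusted over 7 members) and rho 0.86 (exact p = 0.0107, 0.075 adjusted). Its r was 0.95 in the 6 animals left without the 2 farthest from the median (exact, adjusted p = 0.00972). RBP4 had r = 0.88 (exact p = 0.0103, 0.0641 adjusted), which dropped to 0.33 without 21189 and 23004. LEP had r = -0.01, or 0.87 without 22130 and 24849. ADIPOQ had r = 0.68 (exact, adjusted p = 0.163), or 0.55 without 21189 and 22130. CFD, NAMPT and APLN had r of 0.15, 0.22 and 0.22, which became -0.53, 0.36 and -0.12 without the 2 farthest animals of each. Only 3 animals had both of these libraries in the last identifier series, too few for a value within it.

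Across the 27 AT libraries, the genes whose log2 CPM followed each adipokine most closely, out of 12138 whose mean reached 1 CPM, are given as a description. They share libraries and scaling, and no p is given. LEP was followed by CKMT1B (r = 0.97), AKR1C1 (0.95) and SLC24A3 (0.95), and ADIPOQ by HADH (0.89), an enzyme of fatty acid oxidation, ACO1 (0.89) and GYG2 (0.87). RBP4 was followed by CYB5D1 (0.90), NTM (0.89) and RIC3 (0.88), and CFD by ZNF524 (0.82), C19orf60 (0.81) and RAB11B (0.79). NAMPT was followed by ACSL4 (0.86), an enzyme that activates long-chain fatty acids, SLC35F5 (0.85) and SRP72 (0.85). RARRES2 was followed by GSTA3 (0.78), HLA-DQB1 (0.77) and NASP (0.76), and APLN by TUFT1 (0.72), N4BP3 (0.71) and CS (0.66), the citrate synthase gene. Among the members, LEP and RBP4 were closest to each other (r = 0.75), and LEP and NAMPT ran most strongly in opposite directions (r = -0.55).

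SM was used as the contrast. Pre-treatment, 6 of the 7 adipokines differed in level between AT and SM, beside 77.1% of all 13662 genes tested. LEP was higher in AT by 7.80 ± 0.85 on the log2 scale (SE, adjusted p = 3.33e-10), ADIPOQ by 7.46 ± 0.89 (2.04e-09), RBP4 by 6.50 ± 0.85 (1.53e-08), CFD by 3.73 ± 0.52 (6.70e-08) and RARRES2 by 1.73 ± 0.44 (6.91e-04). NAMPT was lower in AT, by -1.38 ± 0.20 (adjusted p = 1.22e-07). APLN was not called, with a log2 difference of -0.55 (95% interval -1.19 to 0.08, adjusted p = 0.107). These differences come from a fit with TMM over both tissues, whereas the printed CPM are scaled within each tissue, where mean APLN was 7.51 CPM in AT and 6.85 CPM in SM. With library size scaling the same 6 genes were called, but the differences were 8.55 for LEP, 8.29 for ADIPOQ, 7.31 for RBP4, 4.47 for CFD, 2.46 for RARRES2, -0.63 for NAMPT and 0.19 for APLN. So the sizes for NAMPT, RARRES2 and APLN, and the sign for APLN, depended on the scaling.

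**Figure D5:**
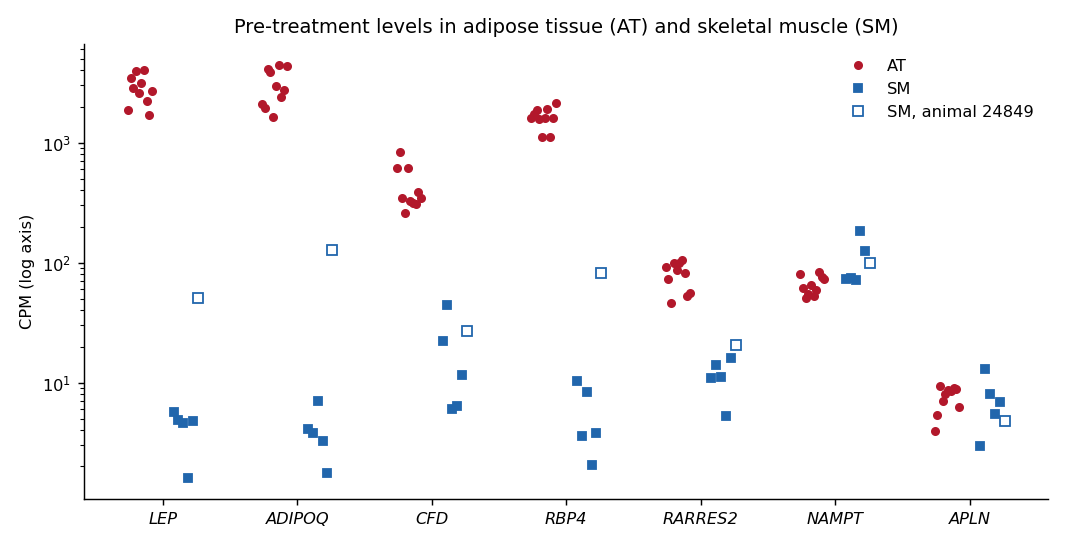
Pre-treatment CPM of the adipokine genes, scaled within each tissue, on a log axis in 10 AT and 6 SM libraries, with the SM library of animal 24849 as an open square. LEP, ADIPOQ, RBP4, CFD and RARRES2 in AT lie above every SM library, and the open square is the highest SM value of LEP, ADIPOQ, RBP4 and RARRES2.

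The SM levels of LEP, ADIPOQ and RBP4 were highest in the libraries with most PLIN1. Pre-treatment LEP in SM was at 1.60 to 5.66 CPM in 5 libraries and at 51.2 CPM in that of animal 24849. ADIPOQ was at 1.77 to 7.00 CPM in the same 5 and at 128 CPM in 24849. Post-treatment the library of 24849 again held most LEP (92.1 CPM), ADIPOQ (123 CPM), RBP4 (120.5 CPM) and CFD (76.6 CPM), and at washout, when PLIN1 in 24849 was at 6.11 CPM, its LEP was at 1.72 CPM. Without the pre- and post-treatment SM libraries of 24849 the AT to SM differences were 8.37 for LEP, 8.50 for ADIPOQ and 7.06 for RBP4. RARRES2 in SM was highest post-treatment in 21866 (62.1 CPM) and 21189 (44.4 CPM), the libraries with most COL1A1 in SM (2934 and 5951 CPM). The part of fat or connective tissue in the biopsies in these values was not tested.

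In SM 0 of the 7 adipokines were called post- compared to pre-treatment, beside 0% of all 12617 genes tested. At washout 0 of 7 were called compared to post-treatment (0.19% of all genes) and 0 of 7 compared to pre-treatment (0.0634% of all genes). Of the 7, 0 had an unadjusted p under 0.05 in edgeR in any of these comparisons, and 0 were called by DESeq2. Over all genes 410 had an unadjusted p under 0.05 in edgeR post-treatment. The estimates were imprecise, with 95% intervals from -1.18 to 1.84 for LEP and from -0.73 to 2.96 for ADIPOQ post-treatment, and from -0.69 to 0.27 for NAMPT. With the identifier series in the model APLN was called in SM at washout, compared to post-treatment (log2 fold change 1.09, adjusted p = 0.0119) and to pre-treatment (1.19, adjusted p = 0.0176). In that fit 2650 and 1355 of all genes were called, and 6 of 7 washout libraries in SM but 3 of 8 post-treatment libraries were of the last series.

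The difference between the tissues was tested directly as an interaction. Post- compared to pre-treatment, 0 of 7 adipokines had changes that differed between AT and SM, beside 0.0487% of 12322 genes, and the LEP difference of -2.3 ± 0.76 (SE) had an adjusted p of 0.251. For washout compared to post-treatment 2 of 7 differed, beside 22.7% of genes. The LEP changes differed by 3.19 ± 0.85 on the log2 scale (SE, adjusted p = 0.00741), with 1.87 in AT and -1.34 in SM, and NAMPT differed by -1.03 ± 0.25 (adjusted p = 0.00365), with -0.60 in AT and 0.41 in SM. Both were also called without the PLIN1-rich SM libraries of 24849, with 2.61 and -1.01. Post-treatment NAMPT in SM was lowest in 21189 (39.3 CPM) and 21866 (46.8 CPM), the libraries with most COL1A1. The interaction was not fitted without them or with the identifier series. For washout compared to pre-treatment 0 of 7 differed, beside 17.5% of genes, and NAMPT had the smallest adjusted p (0.0847, log2 difference -0.65).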

How the data were processed

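The authors sequenced stranded mRNA libraries (paired-end), used STAR for alignment to MacaM, a rhesus genome assembly, and deposited raw counts per gene for 48 libraries. The counting tool is not given in the sources used here. Of 51 labelled samples, 3 SM samples were not analysed here. Dropping 70 repeat entries left 16033 genes. Adipokine members, gene lists and tests were chosen with earlier results of these data known. Genes reaching 0.5 CPM in 10% or more of a tissue's libraries were tested with edgeR 4.0.16 (R 4.3.3): TMM scaling, robust quasi-likelihood fits of time point and animal, 1 fit per tissue and 1 over both tissues for contrasts between them, Benjamini-Hochberg adjustment over all genes. The study's own methods used voomWithQualityWeights of limma, here an alternative (limma 3.58.1), as was DESeq2 1.42.0. Log2 CPM had a prior count of 2. The alternatives added after seeing the data were an earlier quasi-likelihood method, changes relative to adipocyte markers, and fits without 2 PLIN1-rich SM libraries or 2 post-treatment AT libraries. P-values of the fits and of the sign-flip tests rest on how far changes within animals differ from animal to animal. Counting error is small for genes with many counts. It is larger at the lowest counts, 25 for APLN in AT and 6 for RBP4 in SM. Intervals from the fits cover the spread between libraries that is left after time point and animal.

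Simulated data were used to test the fit: in AT, over 13150 genes, 200 of 200 genes given a log2 fold change of 1.5 were recovered with 8 false calls, and in SM, over 12389 genes, 184 of 200 with 8 false calls. Smaller changes were not tested in this way, and among the members in AT only LEP had log2 fold changes beyond 1.5 in size. In SM, post- compared to pre-treatment, standard errors of the members ranged from 0.23 for NAMPT to 0.86 for ADIPOQ. Recovery at the error of each member was not tested. Libraries of 1 animal are paired by the labels. After removal of time point means, same-animal libraries correlated with a median r of 0.35 in AT (25 pairs) and 0.28 in SM (19 pairs), against -0.04 and -0.05 for different animals. Exact permutation tests (two-sided) were run in SciPy 1.17.1, with NumPy 2.4.6, pandas 2.3.3, matplotlib 3.10.9 and Python 3.11.15. Besides the 7 members, the genes named were up to 4 per list with the largest change among those called post-treatment in AT at a mean of at least 1 CPM, and the 3 closest genes per member. Other list genes, DSG1 and those called at washout only among them, were named after their values were seen. There were 19 lists. Because the sequences of the members were not at hand for this genome build, none is shown. Some list genes are not reported here.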

Additional observations from a re-analysis of the deposited data

Results flagged for a closer look

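Among 42 groups of 1 member, tissue and time point, 4 held a library whose distance from the next one exceeded Dixon's 95% limit on log2 CPM, where chance gives about 1 in 20 groups. In pre-treatment SM, animal 24849 had 128 CPM of ADIPOQ, against 7.00 CPM in the next library, and 51.2 CPM of LEP, against 5.66 CPM. In washout SM, animal 20456 had 22.2 CPM of LEP, against 3.49 CPM in the next library, and its PLIN1 of 29.3 CPM was the highest of that group. In post-treatment AT, animal 21189 had 1.48 CPM of APLN, against 3.88 CPM in the next library. Without this animal the post-treatment log2 fold change of APLN was -0.59 and not called (adjusted p = 0.0969).

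Changes from post-treatment to washout differed between AT and SM by an interaction test for LEP, with a difference of 3.19 on the log2 scale, and for NAMPT, with a difference of -1.03.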

How the results depend on the processing

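Of 747 values recomputed for 71 results, 639 kept their direction and side of the limit, 48 lost a call, 25 gained one, 16 changed sign and 19 counts moved by over 1.5 times. In AT, calls of LEP post-treatment and of LEP and NAMPT at washout compared to post-treatment held under all 22 alternative fits. Calls of members post- compared to pre-treatment numbered 1 to 3 when animals were left out in turn, 1 without the pre-treatment library of 20275 and 1 without the post-treatment libraries of 20275 and 22130. At washout compared to post-treatment they numbered 3 to 4, and 5 with DESeq2. At washout compared to pre-treatment they numbered 0 to 2 on leaving out animals, 1 with library size scaling, 1 without the pre-treatment library of 20275, and 0 without the pairing by animal (no replicate block), which also turned APLN to 0.0157, lost the post-treatment call of APLN, gained RBP4 at washout compared to post-treatment, and changed no other count by over 1.5 times. With the identifier series as a covariate 1 member was called in SM at washout compared to post-treatment and 1 compared to pre-treatment. Causes were not tested.

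Sign changes were all of values not called in the edgeR fit of the report. LEP at washout compared to pre-treatment was 0.0441 with library size scaling, 0.0924 without the pre-treatment library of 20275, 0.0387 relative to adipocyte markers, and from -0.271 to 0.0138 without single animals. RARRES2 at washout compared to post-treatment was from -0.0686 to 0.202 without single animals, below 0 without 20275, 21189 or 22130, -0.0497 without 2 post-treatment libraries and -0.345 relative to adipocyte markers. APLN at washout compared to pre-treatment was from -0.331 to 0.00823 without single animals, above 0 without 21866. ADIPOQ post-treatment was 0.0687 without the 2 post-treatment libraries and 0.276 relative to adipocyte markers. With library size scaling the APLN difference between tissues was 0.188 and the CFD interaction at washout compared to pre-treatment 0.0787. Leaving out animals moved the LEP to ADIPOQ ratio at washout compared to pre-treatment between 0.28 and 0.39. Pairs of members with correlated changes numbered 2 with library size scaling, against 0. The lowest counts of a member were 6 in SM and 25 in AT, and the effect of depth was not tested.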

Other observations

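In AT at washout, secreted proteins outside the 7 members moved in both directions compared to post-treatment. VEGFA, the main growth factor for blood vessels, rose from 51.5 to 116 CPM (log2 change 1.07, adjusted p = 2.14e-04) and was also higher than pre-treatment (0.74, adjusted p = 0.00457), and NRG4 rose from 1.98 to 9.08 CPM (2.23, adjusted p = 1.28e-05). GDF15, a stress hormone, fell from 33.3 to 14.3 CPM (-1.59, adjusted p = 0.0144), and ANGPTL4, an inhibitor of lipoprotein lipase, fell from 185 to 81.0 CPM (-1.11, adjusted p = 0.0105). These genes were named after their values were seen.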
